A study of Cricetulus griseus with 24 samples.

Results

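The enzymes that make and use glutamine, glutamate and proline were followed at the RNA level in Chinese hamster ovary (CHO) cells, through the 8 genes Glul, Glud1, Got1, Got2, Gpt2, Aldh18a1, Pycr1 and Oat. The members were the rows of the deposited count table whose gene symbol was one of these names, upper or lower case, which gave 8 of 28037 genes. All 8 symbols matched protein-coding genes of RefSeq. Of the 8 members, 7 had enough counts to be tested in each comparison, and Oat had no count in any culture.

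RNA was sequenced from 3 lines at exponential and at stationary growth phase. A0 is a CHO DG44 line that makes a humanized IgG. It carries 2 plasmids, with the heavy chain on 1 and the light chain and a neomycin resistance gene on the other, and it was selected with G418, which was then removed. A1 is the progeny of A0 after selection in rising methotrexate, used for gene amplification. CHO-S is a line that makes no antibody and served as the negative control. Its sample titles also carry the letters NDST, which the labels do not explain. The producer lines grew as batch suspension cultures in a serum-free medium with hydrolysate and insulin, whose listed components include GlutaMAX, a dipeptide source of glutamine, and L-proline. Each line is 1 line grown in several flasks, so the p-values below measure the spread between cultures of that line. The labels give 4 culture numbers for A0 and 3 for A1 and for CHO-S at each phase, which makes 20 cultures from 24 libraries. Each A0 exponential culture had 2 libraries, marked RLT for cultures 1 and 2 and Duplicate for cultures 3 and 4, which were summed.

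Glutamate stands at the centre of this part of metabolism. Glutamine synthetase (Glul) joins ammonia to it to make glutamine, glutamate dehydrogenase (Glud1) and the transaminases (Got1, Got2, Gpt2) exchange its nitrogen with the carbon skeleton 2-oxoglutarate, and pyrroline-5-carboxylate synthase (Aldh18a1) starts proline synthesis from it. Ornithine aminotransferase (Oat) reaches pyrroline-5-carboxylate from ornithine, and Pycr1 reduces it to proline. CHO cells are classically known as proline auxotrophs, and glutamine synthetase is also used in CHO cells as a selection marker.

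Levels are given as CPM, a gene's reads relative to all reads on genes after TMM scaling (trimmed mean of M values, which sets the libraries to a common scale). They compare 1 gene between cultures and not 1 gene with another, since transcript lengths were not used here. The RNA is from bulk cultures, so fewer expressing cells and less RNA per cell cannot be told apart. Reads on genes per library ranged from 6532373 to 14652646, apart from CHO-S stationary culture 1 with 1038026. In that culture the tested members rested on 0 to 221 counts, and the main results for CHO-S at stationary phase are therefore also given without it. Growth genes followed the phase labels: of 8 (among them Mki67 and Rrm2), 7 fell at stationary phase in A0, 7 in A1 and 4 in CHO-S, with median log2 changes of -1.07, -0.49 and -0.66. Without CHO-S stationary culture 1, all 8 fell in CHO-S, with a median of -0.79, where 47.7% of all genes tested passed against 13.3% with it. The mesenchymal markers Vim, Lgals1 and Actb were high in every group, while the blood and liver markers Ptprc, Cd3e and Alb stayed at or under 0.733 CPM in every culture. The epithelial marker Epcam reached 3.54 CPM in A1 stationary cultures and 0.22 CPM at most in CHO-S.

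Pycr1, the mitochondrial enzyme of the last step to proline, had the largest phase response among the members in both producer lines. In A0 it had 30.9, 36.9, 27.7 and 21.7 CPM in exponential cultures 1 to 4 and 91.1, 84.8, 108.9 and 96.2 CPM in the stationary ones. In A1 it had 18.98, 21.3 and 23.5 CPM at exponential phase and 59.6, 52.1 and 65.8 CPM at stationary phase. Every stationary culture of the producers lay above every exponential one. In CHO-S the exponential cultures had 11.8, 11.9 and 14.5 CPM and the stationary ones 12.4, 22.1 and 19.6 CPM. The CHO-S groups overlapped only through stationary culture 1, where the gene had 12 counts. The rise was 3.22-fold in A0 (log2 fold change 1.69 ± 0.14 SE, adjusted p = 1.51e-07 from edgeR, by its quasi-likelihood test, adjusted after Benjamini and Hochberg over every gene tested). In A1 it was 2.82-fold (log2 fold change 1.49 ± 0.09 SE, adjusted p = 1.16e-13 from edgeR), and in CHO-S it was 1.57-fold (log2 fold change 0.65 ± 0.16 SE, adjusted p = 0.035 from edgeR). In order of level, the groups ran from A0 stationary (95.3 ± 10.2 CPM, SD, n = 4) over A1 stationary (59.2 ± 6.86 CPM, SD, n = 3), A0 exponential, A1 exponential and CHO-S stationary to CHO-S exponential (12.7 ± 1.52 CPM, SD, n = 3). The first 3 groups were separate from each other, while each of the lower 3 overlapped with the group above it.

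Gpt2, the mitochondrial alanine transaminase, moved with Pycr1 in the producers. Its A0 cultures had 47.3, 53.0, 44.1 and 35.7 CPM at exponential phase and 97.3, 91.9, 104.3 and 110.0 CPM at stationary phase. Its A1 cultures had 23.7, 28.6 and 27.2 CPM at exponential phase and 57.7, 55.2 and 57.3 CPM at stationary phase. Again no stationary culture of either line reached down to an exponential one. In CHO-S the values were 28.1, 31.4 and 28.2 CPM at exponential phase and 26.8, 32.8 and 32.8 CPM at stationary phase, with the phases overlapping. The rise was 2.22-fold in A0 (log2 fold change 1.15 ± 0.12 SE, adjusted p = 1.22e-06 from edgeR) and 2.17-fold in A1 (log2 fold change 1.11 ± 0.08 SE, adjusted p = 3.03e-12 from edgeR). In CHO-S the log2 difference was 0.12 with a 95% interval from -0.16 to 0.40 (adjusted p = 0.56 from edgeR). A0 stationary (101 ± 7.95 CPM, SD, n = 4), A1 stationary (56.7 ± 1.35 CPM, SD, n = 3) and A0 exponential (45.0 ± 7.22 CPM, SD, n = 4) did not overlap with each other or with the remaining 3 groups, which did not separate among themselves.

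**Figure D1:**
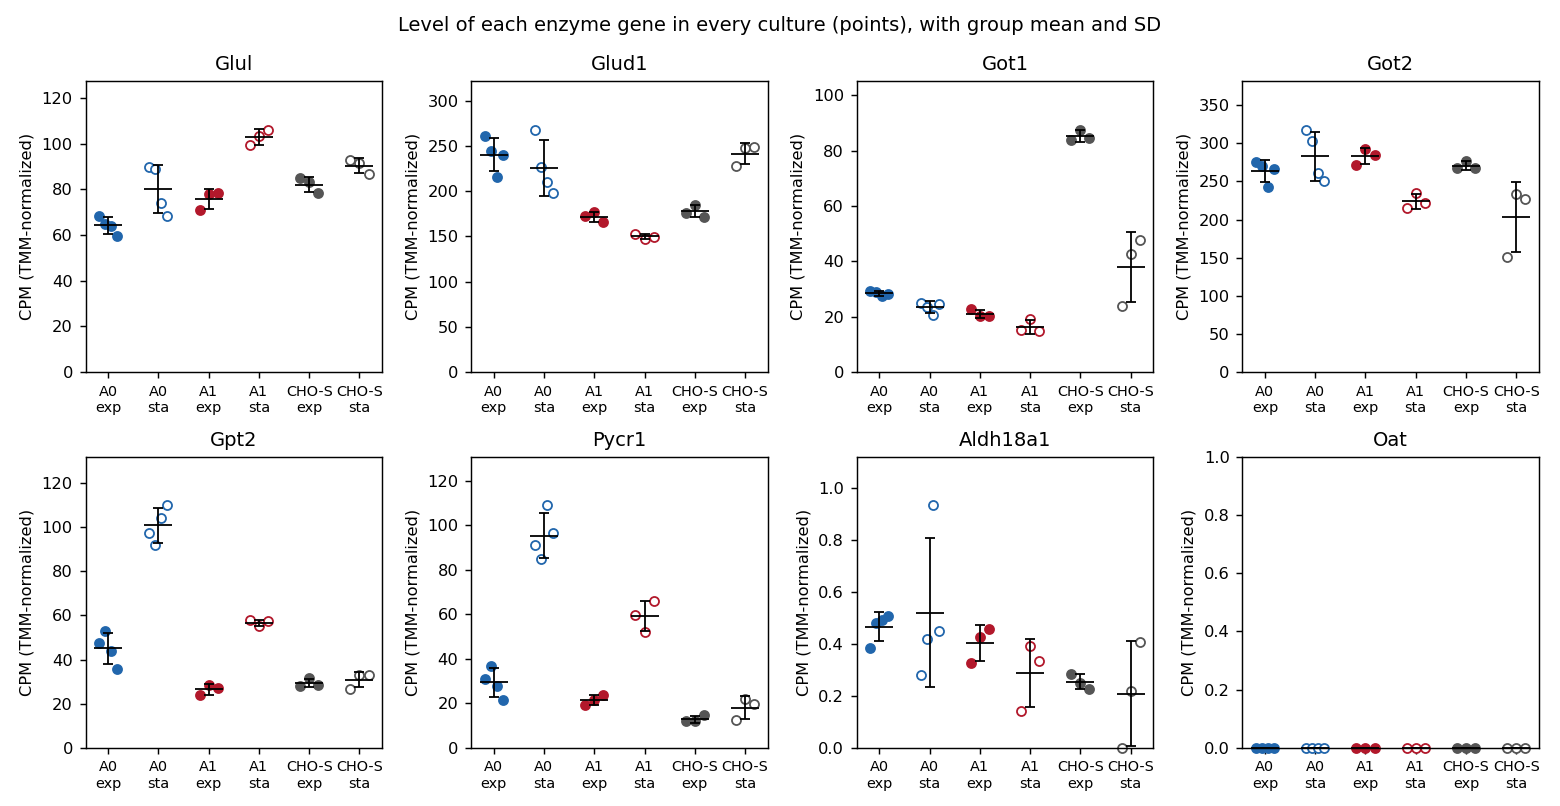
TMM-normalized CPM (y axis, linear scale, from 0) of the 8 members in each of the 20 cultures, by line and phase on the x axis, with filled points for exponential and open points for stationary phase and bars for the mean ± SD. Pycr1 and Gpt2 stand higher in the stationary cultures of A0 and A1, Got1 is highest in the CHO-S exponential cultures (83.7 to 87.6 CPM), Aldh18a1 stays under 1 CPM and Oat lies at 0.

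The 2 members that supply pyrroline-5-carboxylate, from glutamate and from ornithine, were close to or below the detection limit. Aldh18a1 had 113 counts over all 20 cultures. In A0 these were 10, 12, 12 and 12 counts at exponential phase, over 2 libraries each, and 3, 5, 12 and 6 counts at stationary phase. In A1 they were 4, 5 and 6 counts and 1, 5 and 4 counts, and in CHO-S 4, 3 and 3 counts and 0, 3 and 3 counts. The highest level in any culture was 0.935 CPM, in A0 stationary culture 3. At this depth no difference between phases or lines was detectable for Aldh18a1: its intervals were wide (in A0, a log2 phase difference of 0.17 with a 95% interval from -0.67 to 1.02), and its adjusted p over the 9 pairwise comparisons was at least 0.11 with edgeR. Oat had 0 counts among 277988642 reads on genes. At about 95% confidence, a count of 0 allows an expected count of up to 3, or 0.0108 CPM over all cultures. Within single groups, a count of 0 allows from 0.03 CPM in A0 exponential to 0.131 CPM in CHO-S stationary cultures. These limits cover counting error only. The table leaves out reads that aligned to more than 1 place, which were 12.7% to 14.8% of reads per library, and whether the low counts of Aldh18a1 and Oat came from this or from the gene models used for counting was not tested.

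Glul, which makes glutamine from glutamate and ammonia, was higher at stationary phase in both producers, by a smaller amount. A0 had 68.6, 65.0, 64.1 and 59.6 CPM at exponential phase and 89.6, 88.7, 74.0 and 68.5 CPM at stationary phase. A1 had 70.9, 78.1 and 78.6 CPM at exponential phase and 99.3, 103.2 and 106.2 CPM at stationary phase. The A1 phases were separate, while in A0 the stationary culture 4 lay within the exponential range. In CHO-S the cultures had 84.8, 83.2 and 78.4 CPM at exponential phase and 92.9, 91.4 and 86.7 CPM at stationary phase. The rise was 1.38-fold in A1 (log2 fold change 0.46 ± 0.06 SE, adjusted p = 9.50e-07 from edgeR) and 1.24-fold in A0 (log2 fold change 0.31 ± 0.10 SE, adjusted p = 0.029 from edgeR). The A0 call was lost when exponential culture 2, 3 or 4 was left out, with log2 values of 0.31, 0.30 and 0.28. It was also lost without stationary culture 1 or 2 (0.26 and 0.25). With the first library of each A0 exponential culture alone, the A0 value was 0.43 (adjusted p = 0.0024 from edgeR). The CHO-S phases did not overlap, but the log2 difference of 0.14 was not past the threshold (95% interval -0.15 to 0.43, adjusted p = 0.50 from edgeR).

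Glud1, which releases or takes up ammonia between glutamate and 2-oxoglutarate, took opposite directions in A1 and CHO-S. The A0 cultures had 261.3, 244.5, 216 and 240.4 CPM at exponential phase and 268.3, 226.8, 210.1 and 197.9 CPM at stationary phase, which overlapped. In A1 the values were 172.1, 176.9 and 166.3 CPM and then 153.1, 147.6 and 149.7 CPM, with each stationary culture below each exponential one. In CHO-S they were 176.4, 184.9 and 171.7 CPM and then 228.1, 247.9 and 249.2 CPM, with each stationary culture above. Glud1 fell by 0.18 on the log2 scale in A1 (SE 0.06, adjusted p = 0.016 from edgeR) and rose 1.37-fold in CHO-S (log2 fold change 0.45 ± 0.12 SE, adjusted p = 0.044 from edgeR). In A0 the log2 difference was -0.10 with a 95% interval from -0.33 to 0.12 (adjusted p = 0.48 from edgeR). The A1 call was lost without exponential culture 1 or 2 or stationary culture 2 (log2 values of -0.17, -0.16 and -0.16) and with all 6 groups in 1 fit (log2 value -0.19, adjusted p = 0.33 from edgeR), where the A1 calls of Got1 and Got2 were lost too (adjusted p = 0.13 and 0.10 from edgeR).

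Got1, the cytosolic aspartate transaminase and a part of the malate-aspartate shuttle, was lower at stationary phase in all 3 lines and highest in the CHO-S exponential cultures. In CHO-S it had 83.7, 87.6 and 84.5 CPM at exponential phase and 23.7, 42.6 and 47.6 CPM at stationary phase, the lowest of them 23 counts in the shallow culture 1. In A0 it had 29.3, 29.0, 27.5 and 28.0 CPM and then 25.0, 23.5, 20.5 and 24.7 CPM. In A1 it had 22.7, 20.2 and 20.1 CPM and then 15.2, 19.3 and 14.7 CPM. The phases did not overlap in any line. The CHO-S stationary culture 1 lay within the A0 stationary range, and the other CHO-S stationary cultures lay above every producer culture. On the log2 scale Got1 fell by 1.09 in CHO-S (SE 0.22, adjusted p = 0.019 from edgeR), by 0.29 in A0 (SE 0.10, adjusted p = 0.035 from edgeR) and by 0.33 in A1 (SE 0.11, adjusted p = 0.023 from edgeR). The A0 call was lost with another size factor (RLE, adjusted p = 0.055 from edgeR), with all 6 groups in 1 fit (adjusted p = 0.067 from edgeR) and without exponential culture 1 or 2 or stationary culture 2 or 3, at log2 values of -0.27, -0.28, -0.29 and -0.23. The A1 call was lost without exponential culture 1 or 3 or stationary culture 1 or 3, at log2 values of -0.27, -0.36, -0.28 and -0.24, and with DESeq2 (adjusted p = 0.069).

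Got2, the mitochondrial aspartate transaminase, fell at stationary phase in A1. A1 had 271.7, 292.6 and 284.5 CPM at exponential phase and 215.6, 234.5 and 222 CPM at stationary phase, with no overlap. A0 had 275.9, 270.7, 242.7 and 266.8 CPM and then 318.1, 302.6, 261.3 and 250.7 CPM, with cultures 1, 2 and 3 higher and culture 4 lower at stationary phase. CHO-S had 267.0, 277.4 and 267.2 CPM and then 150.7, 233.0 and 227.1 CPM. Every CHO-S stationary culture lay below every exponential one, the shallow culture 1 farthest. Got2 fell by 0.32 on the log2 scale in A1 (SE 0.06, adjusted p = 3.36e-05 from edgeR). The log2 difference was 0.09 in A0 (95% interval -0.12 to 0.30, adjusted p = 0.52 from edgeR) and -0.40 in CHO-S (95% interval -0.81 to 0.01, adjusted p = 0.18 from edgeR). Without CHO-S stationary culture 1 Got2 fell in CHO-S by 0.23 (adjusted p = 1.0e-05 from edgeR). With all 6 groups in 1 fit, the CHO-S value of -0.38 passed the threshold (adjusted p = 0.042 from edgeR) and the A1 value of -0.34 did not.

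Counted over the members, the phase response of A0 had 4 of 7 tested genes past the threshold, 3 up (Pycr1, Gpt2 and Glul) and 1 down (Got1), against 37.7% of all 20267 genes tested, 17.7% up and 20.1% down. In A1 it had 6 of 7, 3 up (the same genes) and 3 down (Got1, Got2 and Glud1), against 33.4% of all genes, 15.6% up and 17.8% down. In CHO-S it had 3 of 7, Pycr1 and Glud1 up and Got1 down, against 13.3% of all genes, 6.81% up and 6.48% down. The members' median log2 change was 0.17 in A0, -0.18 in A1 and 0.12 in CHO-S, beside 0.0013, 0.032 and 0.023 over all genes. The CHO-S count turned on single cultures. Without stationary culture 1, 4 members passed (Got1 at -0.93, Glud1 at 0.49, Pycr1 at 0.73 and Got2 at -0.23 on the log2 scale) where 47.7% of all genes did, and Gpt2 and Glul had 0.17 and 0.13 (adjusted p = 0.085 and 0.062 from edgeR). Without any other single CHO-S culture, 0 members passed in edgeR, although 3 had an unadjusted p under 0.05 in each of these fits. With all cultures, Glud1 was lost with no filter on low counts (adjusted p = 0.054 from edgeR) and Pycr1 with DESeq2 (adjusted p = 0.052).

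**Figure D2:**
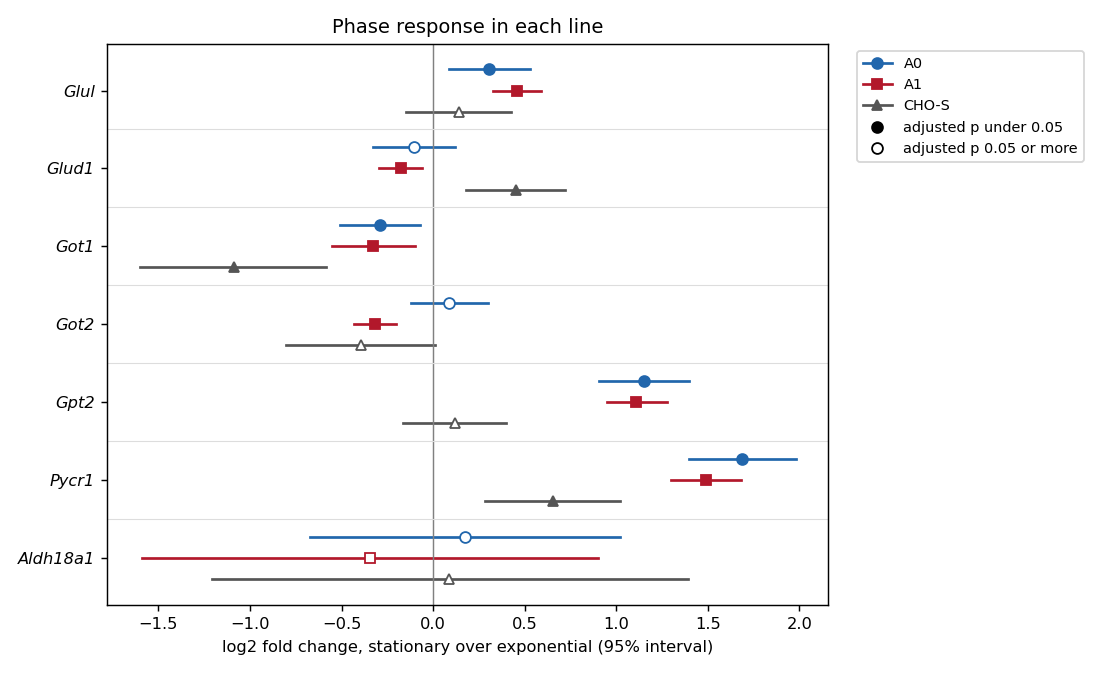
Log2 fold change of stationary against exponential phase (x axis) for each of the 7 tested members (rows) in A0, A1 and CHO-S (colour and shape), with 95% intervals as bars and filled points where the adjusted p was under 0.05. Pycr1 and Gpt2 lie above 1 in A0 and A1, Got1 lies below 0 in all 3 lines, and the intervals of Aldh18a1 are the widest.

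Whether the phase response itself differed between lines was tested as an interaction. The Gpt2 response was larger by 1.01 on the log2 scale in A0 than in CHO-S (SE 0.20, adjusted p = 0.0023 from edgeR) and by 0.97 in A1 than in CHO-S (SE 0.14, adjusted p = 0.00081 from edgeR). The Pycr1 response was larger by 1.04 in A0 than in CHO-S (SE 0.26, adjusted p = 0.012 from edgeR) and by 0.82 in A1 than in CHO-S (SE 0.20, adjusted p = 0.022 from edgeR). The fall of Got1 was smaller in A0 than in CHO-S by 0.75 (SE 0.21, adjusted p = 0.025 from edgeR). The Glud1 response was lower in A1 than in CHO-S by 0.64 (log2 -0.64, SE 0.13, adjusted p = 0.0096 from edgeR). These are 3 of 7 members for A0 against CHO-S, where 10.3% of all genes passed, and 3 of 7 for A1 against CHO-S, where 7.6% passed. The A0 against CHO-S value of Glud1 was -0.56 and just missed the threshold (adjusted p = 0.051 from edgeR). It passed in 4 of 16 alternative fits, among them DESeq2 (adjusted p = 0.0058). With the first A0 libraries alone it was -0.455 (adjusted p = 0.098 from edgeR). The A1 against CHO-S value of Got1 was 0.69 (SE 0.21) and missed the threshold too (adjusted p = 0.0585 from edgeR). It passed in 4 of 12 alternative fits, among them DESeq2 (adjusted p = 0.039). Both interactions with CHO-S use the same CHO-S cultures, the shallow one included. Without CHO-S culture number 1 at both phases, 4 members passed for A0 against CHO-S, where 14.2% of all genes did: Pycr1 (1.07), Gpt2 (1.06), Got1 (0.69) and Glud1 (-0.54). For A1 against CHO-S 5 passed then, where 23.1% of all genes did: Gpt2 (0.95), Pycr1 (0.80), Got1 (0.60), Glul (0.29) and Glud1 (-0.68). Between A1 and A0, 1 member of 7 differed in phase response, Got2 with -0.45 (SE 0.13, adjusted p = 0.027 from edgeR), where 8.94% of all genes passed. For Pycr1 and Gpt2 the A1 minus A0 difference was -0.23 (95% interval -0.63 to 0.17) and -0.07 (95% interval -0.40 to 0.25).

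The Gpt2 interactions were past the threshold whichever culture number was left out. In these fits both the exponential and the stationary culture of that number and line were left out. Other calls were lost without single culture numbers, although their log2 values kept their sign. The A0 against CHO-S value of Pycr1 was lost without A0 culture number 3 (0.94) or CHO-S culture number 3 (0.94). That of Got1 was lost without A0 culture number 1 (0.74) or CHO-S culture number 2 (0.80). The A1 against CHO-S values of Pycr1 and Glud1 were lost without any 1 of the A1 culture numbers or without CHO-S culture number 2 or 3. Their log2 values were then from 0.73 to 1.04 and from -0.66 to -0.59. The Got2 difference between A1 and A0 was lost without A0 culture number 2 (-0.42) or any 1 of the A1 culture numbers (-0.45, -0.42 and -0.44).

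Between the amplified progeny A1 and its parent A0 at the same phase, most members were lower in A1 at stationary phase and 1 was higher. At exponential phase 4 of 7 members passed the threshold, all lower in A1, where 25.9% of all genes passed, 12% higher and 13.8% lower. At stationary phase 6 of 7 passed, 5 lower and Glul higher in A1, where 33.7% of all genes passed, 16% higher and 17.7% lower. The members' median log2 difference was -0.44 at exponential and -0.60 at stationary phase, beside -0.039 and -0.0021 over all genes. Of 8 growth genes, 5 were higher in A1 at stationary phase, with a median log2 difference of 0.46. Their part in the members' differences was not tested.

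Gpt2 had the largest difference between A1 and A0. It was lower in A1 by 0.77 on the log2 scale at exponential phase (log2 -0.77, SE 0.13, adjusted p = 0.00052 from edgeR) and by 0.84 at stationary phase (log2 -0.84, SE 0.08, adjusted p = 3.26e-06 from edgeR), with no overlap between lines at either phase. Pycr1 was lower at stationary phase (log2 fold change -0.70 ± 0.10 SE, adjusted p = 0.00013 from edgeR), again without overlap. At exponential phase its lines overlapped (log2 fold change -0.47 ± 0.16 SE, adjusted p = 0.037 from edgeR). That call was lost without A0 culture 1, 2 or 3, at -0.44, -0.33 and -0.50, and without any 1 of the A1 cultures, at -0.39, -0.47 and -0.55.

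Glud1 and Got1 were lower in A1 at both phases, with no overlapping cultures. The log2 fold change of Glud1 was -0.49 ± 0.09 SE at exponential phase (adjusted p = 0.0011 from edgeR) and -0.60 ± 0.09 SE at stationary phase (adjusted p = 0.00019 from edgeR). For Got1 it was -0.44 ± 0.10 SE (adjusted p = 0.0050 from edgeR) and -0.52 ± 0.12 SE (adjusted p = 0.0043 from edgeR). Got2 was lower in A1 at stationary phase (log2 fold change -0.35 ± 0.09 SE, adjusted p = 0.0060 from edgeR), while at exponential phase its log2 difference was 0.10 (95% interval -0.09 to 0.28). Glul was the member with the opposite sign. At stationary phase it was 1.28-fold higher in A1 (log2 fold change 0.35 ± 0.10 SE, adjusted p = 0.012 from edgeR), a call lost without A1 stationary culture 3 (0.32). At exponential phase the A1 cultures also lay above all A0 cultures, but the log2 difference of 0.24 was not past the threshold (95% interval 0.05 to 0.43, adjusted p = 0.065 from edgeR). It passed without A0 culture 1 (log2 0.27, adjusted p = 0.040 from edgeR), with a stricter filter on low counts (adjusted p = 0.042 from edgeR), with DESeq2 (adjusted p = 0.044), with A0 cultures 3 and 4 alone (log2 0.29) and with the first library of each A0 culture alone (log2 0.34, adjusted p = 0.0040 from edgeR).

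**Figure D3:**
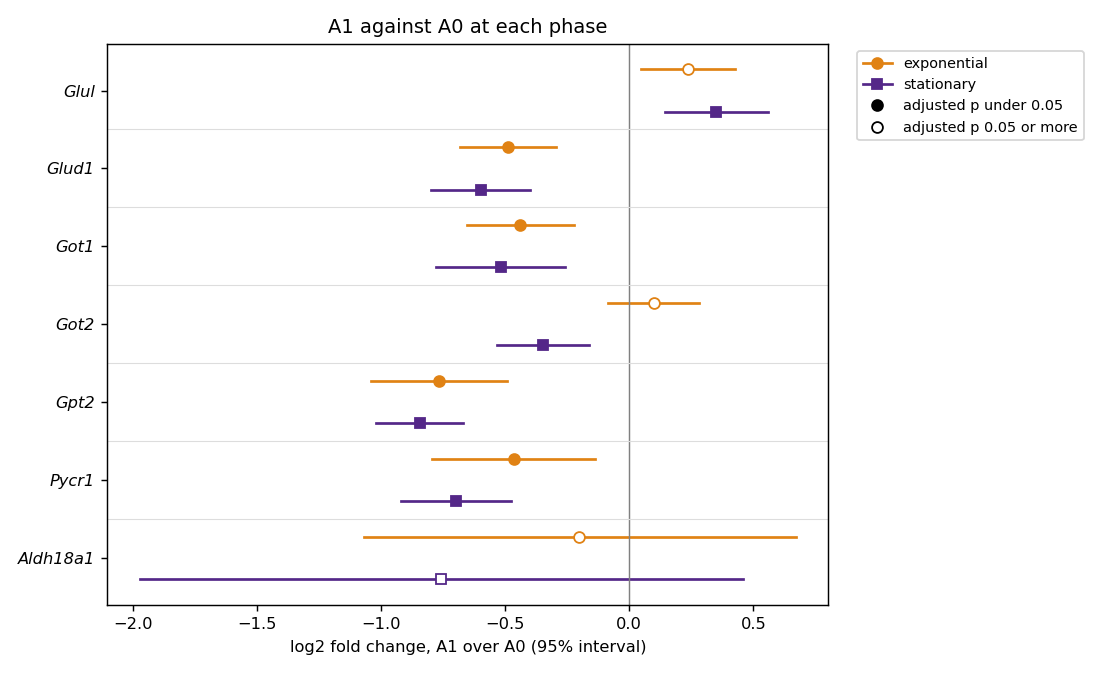
Log2 fold change of A1 against A0 (x axis) for the 7 tested members (rows) at exponential and at stationary phase, with 95% intervals as bars and filled points where the adjusted p was under 0.05. Gpt2, Glud1 and Got1 are lower in A1 at both phases (log2 values from -0.84 to -0.44), and Glul is the one gene with positive values at both phases whose stationary value passed the threshold.

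The A0 cultures fell into pairs that differed in several members, which bears on the comparisons with A0. Cultures 1 and 2 had more Glul than cultures 3 and 4 at stationary phase (89.6 and 88.7 against 74.0 and 68.5 CPM), and more Pycr1 at exponential phase (30.9 and 36.9 against 27.7 and 21.7 CPM). The rise of Pycr1 in A0 was 1.37 on the log2 scale with cultures 1 and 2 alone and 2.06 with cultures 3 and 4 alone, and that of Gpt2 was 0.90 and 1.43. Both were past the threshold in each pair, whereas Glul and Got1 were so in cultures 1 and 2 (0.41 and -0.27) and not in cultures 3 and 4 (0.21 and -0.29). The difference of Pycr1 between A1 and A0 at exponential phase was -0.68 against cultures 1 and 2 and -0.22 against cultures 3 and 4. The difference in the Pycr1 phase response between A1 and A0 was 0.09 with cultures 1 and 2 and -0.58 with cultures 3 and 4, where it passed the threshold (adjusted p = 0.040 from edgeR). Against CHO-S, the larger Pycr1 response of A0 was lost with cultures 1 and 2 alone (0.74), and the Got1 interaction and the lower stationary Got1 of A0 were lost with either pair (0.80 and 0.76, and -0.71 and -0.84). These splits were added after the values had been seen. Between the 2 libraries of an A0 exponential culture, over the 6 members with more than a few counts, the ratio of the second to the first library's CPM ranged from 0.876 to 1.28. The highest ratios were those of the RLT libraries for Glud1 (1.28 and 1.23 in cultures 1 and 2) and Glul (1.22 and 1.19).

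Against CHO-S, Got1 and Pycr1 differed in both A0 and A1 at both phases, in opposite directions. A1 descends from A0, so they are not independent producers, and CHO-S is a separate line. Antibody production, line and selection therefore cannot be told apart in these comparisons. The medium is given above for the producer lines only, and the part of a difference in medium was not tested. At exponential phase Got1 was lower by 1.57 on the log2 scale in A0 (log2 -1.57, SE 0.08, adjusted p = 1.21e-09 from edgeR) and by 2.03 in A1 (log2 -2.03, SE 0.07, adjusted p = 1.52e-17 from edgeR). Pycr1 was 2.32-fold higher in A0 (log2 fold change 1.21 ± 0.17 SE, adjusted p = 2.33e-05 from edgeR) and 1.66-fold higher in A1 (log2 fold change 0.73 ± 0.11 SE, adjusted p = 2.44e-06 from edgeR). In A0, Gpt2 and Glud1 were also higher (log2 0.64 and 0.45, adjusted p = 0.00064 and 0.00059 from edgeR) and Glul lower (log2 -0.34, adjusted p = 0.0036 from edgeR). This made 5 of 7 members for A0 and 2 of 7 for A1, beside 49.5% and 57.2% of all genes tested. In A1 the log2 differences were -0.15 for Gpt2 (95% interval -0.32 to 0.03), -0.05 for Glud1 (95% interval -0.15 to 0.04) and -0.12 for Glul (95% interval -0.24 to 0.00). Without A1 culture 2, Gpt2 (-0.21) and Glul (-0.15) passed too, which made 4.

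At stationary phase the difference in Pycr1 was wider, 4.88-fold in A0 (log2 fold change 2.29 ± 0.19 SE, adjusted p = 9.30e-06 from edgeR) and 3.02-fold in A1 (log2 fold change 1.60 ± 0.20 SE, adjusted p = 0.00058 from edgeR). Gpt2 was 3.17-fold higher in A0 (log2 fold change 1.66 ± 0.15 SE, adjusted p = 1.56e-05 from edgeR) and 1.78-fold higher in A1 (log2 fold change 0.83 ± 0.15 SE, adjusted p = 0.0032 from edgeR). Got1 was lower than in CHO-S by 0.79 in A0 (log2 -0.79, SE 0.20, adjusted p = 0.0087 from edgeR) and by 1.31 in A1 (log2 -1.31, SE 0.23, adjusted p = 0.0027 from edgeR). Glud1 was lower in A1 (log2 fold change -0.71 ± 0.13 SE, adjusted p = 0.0042 from edgeR), while in A0 its difference was -0.12 (95% interval -0.46 to 0.22). This made 3 of 7 members for A0 and 4 of 7 for A1, beside 40% and 34.8% of all genes. The A0 value of Got1 was lost without CHO-S stationary culture 2 (-0.67) or 3 (-0.61). Without CHO-S stationary culture 1, Got2 passed for A0 (0.32) and Glul for A1 (0.18), which made 4 and 5 members, beside 51.8% and 57.4% of all genes. In these fits Pycr1 was at 2.20 and 1.46, Gpt2 at 1.64 and 0.76, Got1 at -0.92 and -1.46 and Glud1 at -0.12 and -0.75 for A0 and A1.

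Among the members, Pycr1 and Gpt2 followed each other most closely. Over the 20 cultures the correlation of their log2(CPM + 1) was r = 0.95, and it was 0.81 after the mean of each group was taken away. For Got1 and Got2 the values were 0.16 over the cultures and 0.81 within groups, and for Glul and Glud1 they were -0.40 and 0.63. These are descriptions, since the cultures share lines, phases and the scaling of their libraries. Among 10587 genes that averaged 5 CPM or more, those most like Pycr1 were Gpat3 (r = 0.97), LOC103164311 (r = 0.97) and Scn4a (r = 0.96), and those most like Gpt2 were LOC100753566 (r = 0.98), Gpat3 (r = 0.97) and Polb (r = 0.96). Those most like Got1 were Fam20c (r = 0.96), Fmnl3 (r = 0.94) and Brf1 (r = 0.94). For Glul, Glud1 and Got2 the closest genes were Gzf1, Slc30a9 and Rhoa, with r = 0.91, 0.90 and 0.91. Aldh18a1 and Oat were too low to be compared in this way.

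**Figure D4:**
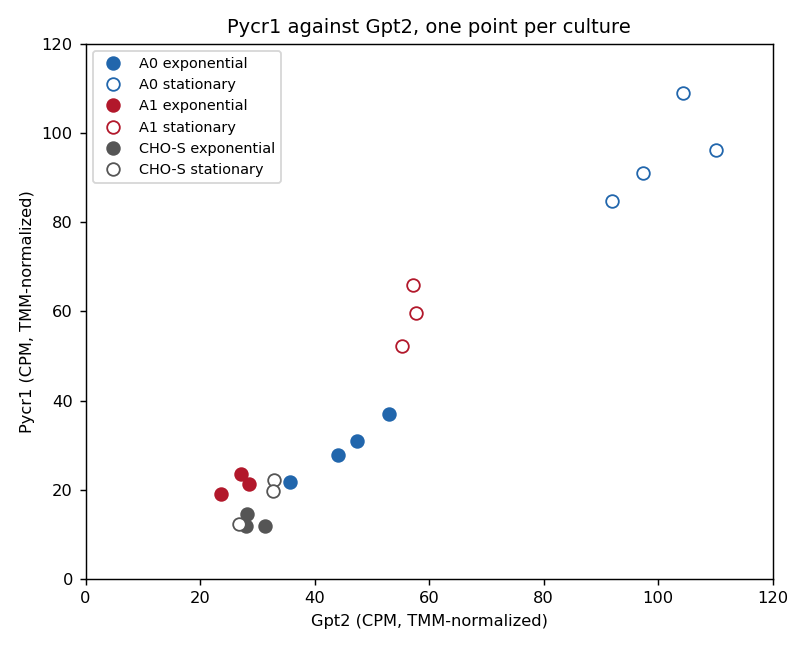
CPM of Gpt2 (x axis) and Pycr1 (y axis), both TMM-normalized and on linear scales from 0, in each of the 20 cultures, by line (colour) and phase (filled for exponential, open for stationary). The A0 and A1 stationary cultures lie above all others on both axes, and the CHO-S cultures lie at the lower left, with Pycr1 from 11.8 to 22.1 CPM, beside the A1 exponential ones.

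The genes around the members were counted by lists. Beside these counts, 37.7% of all genes tested passed for phase in A0, 33.4% in A1 and 13.3% in CHO-S. Without CHO-S stationary culture 1 the CHO-S share was 47.7%. Between A1 and A0, 25.9% of all genes passed at exponential and 33.7% at stationary phase. Whether any list stood out from all genes was not tested. Of 12 genes that use glutamine, 11 were tested: 3 rose and 3 fell in A0, and 4 rose and 5 fell in A1. Asns, which makes asparagine with the amide nitrogen of glutamine, rose 1.34 on the log2 scale in A0 (77.5 to 197 CPM, SE 0.25, adjusted p = 0.00042 from edgeR) and 1.00 in A1 (66.1 to 131 CPM, SE 0.07, adjusted p = 5.40e-13 from edgeR). Ppat, of the first step of purine synthesis, fell by 1.08 in A0 (SE 0.14, adjusted p = 1.22e-05 from edgeR). In CHO-S 3 of the 11 fell, Pfas, Cad and Ctps1 of nucleotide synthesis, with log2 values of -1.41, -1.35 and -0.50. Without stationary culture 1, 5 of the 11 fell there, and these 3 had -1.19, -1.03 and -0.48. Between A1 and A0, 1 was higher and 1 lower in A1 at exponential phase and 2 were higher and 4 lower at stationary phase, where Asns and Ppat had log2 fold changes of -0.60 and -0.53.

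Of 9 proline neighbours in the table, 7 were tested for phase in A0 and 8 in A1. In A0 3 fell (Aldh4a1, Pycrl and Odc1) and in A1 4 fell, Aldh4a1 and Pycrl among them. Aldh4a1, which oxidises the proline breakdown product to glutamate, fell by 1.08 on the log2 scale in A0 (SE 0.16, adjusted p = 4.14e-05 from edgeR) and by 0.83 in A1 (SE 0.10, adjusted p = 2.85e-08 from edgeR). It was also higher in A1 than in A0, by 1.57 on the log2 scale at exponential phase (46.3 against 15.6 CPM, SE 0.13, adjusted p = 6.32e-07 from edgeR) and by 1.77 at stationary phase (25.4 against 7.42 CPM, SE 0.14, adjusted p = 5.98e-07 from edgeR). Pycr1 and Aldh4a1 thus differed in opposite directions, both between phases in the producers and between A1 and A0 at stationary phase. Prodh, of the first step of proline breakdown, averaged 2.09 CPM at exponential and 2.69 CPM at stationary phase in A0. In A1 it averaged 1.73 and 2.32 CPM, and neither rise passed the threshold. Pycrl, the cytosolic reductase, fell by 0.40 in A1 (adjusted p = 0.0056 from edgeR). Like Aldh4a1, Pycrl was higher in A1 than in A0 at stationary phase (log2 0.45, adjusted p = 0.015 from edgeR). In CHO-S 0 of 7 passed in edgeR, 0 also in DESeq2, and 1 had an unadjusted p under 0.05. Without stationary culture 1, 2 rose and 2 fell there. The arginases Arg1 and Arg2, which make ornithine, did not exceed 0.43 CPM in any culture.

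Of 13 other transaminases and glutamate users, 12 were tested for phase in A0, where 4 rose and 2 fell, and 11 in A1, where 5 rose and 3 fell. In A0 the kynurenine transaminase Kyat1, the branched-chain transaminase Bcat1 and the serine pathway transaminase Psat1 rose by 1.29, 0.87 and 0.66 on the log2 scale (adjusted p = 1.92e-06, 2.24e-06 and 0.00048 from edgeR). Kyat1 also rose in A1, by 0.81 (adjusted p = 4.72e-07 from edgeR). The A1 means of Bcat1 and Psat1 were higher at stationary phase too (50.1 to 65.1 CPM and 257 to 315 CPM). In CHO-S 4 of 10 fell, among them Psat1 by 1.06 (SE 0.26, adjusted p = 0.037 from edgeR). Without stationary culture 1, 4 of the 10 fell in CHO-S, with Psat1 at -0.83, and 2 rose, Bcat1 by 0.44 and Kyat1 by 0.63 on the log2 scale (adjusted p = 2.63e-12 and 6.55e-07 from edgeR). Bcat1 was lower in A1 than in A0 at both phases (log2 fold changes of -0.70 and -1.21). A list of 7 genes around the malate-aspartate shuttle of Got1 and Got2 also held the glutamate carriers Slc25a22 and Slc25a18, which lie outside it. Of these 7 genes, 3 fell in A0, 3 in A1 and 1 in CHO-S. Slc25a12, a mitochondrial aspartate-glutamate carrier, was among them in each line, with log2 fold changes of -1.49 in A0, -0.76 in A1 and -0.57 in CHO-S (adjusted p = 1.84e-08, 5.02e-09 and 0.049 from edgeR). Without CHO-S stationary culture 1, 4 of the 7 fell in CHO-S, Slc25a12 with -0.46. For the glutamine users, median log2 phase changes in A0, A1 and CHO-S were -0.064, -0.088 and -0.23. For the proline neighbours they were -0.12, -0.14 and 0.072, and for the transaminases and glutamate users 0.087, -0.16 and -0.0026. For the shuttle list they were -0.60, -0.19 and -0.28, where the A0 median was the value of the carrier Slc25a22. Without CHO-S stationary culture 1 the CHO-S medians were -0.14, 0.20, -0.097 and -0.26 for these lists in turn.

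**Figure D5:**
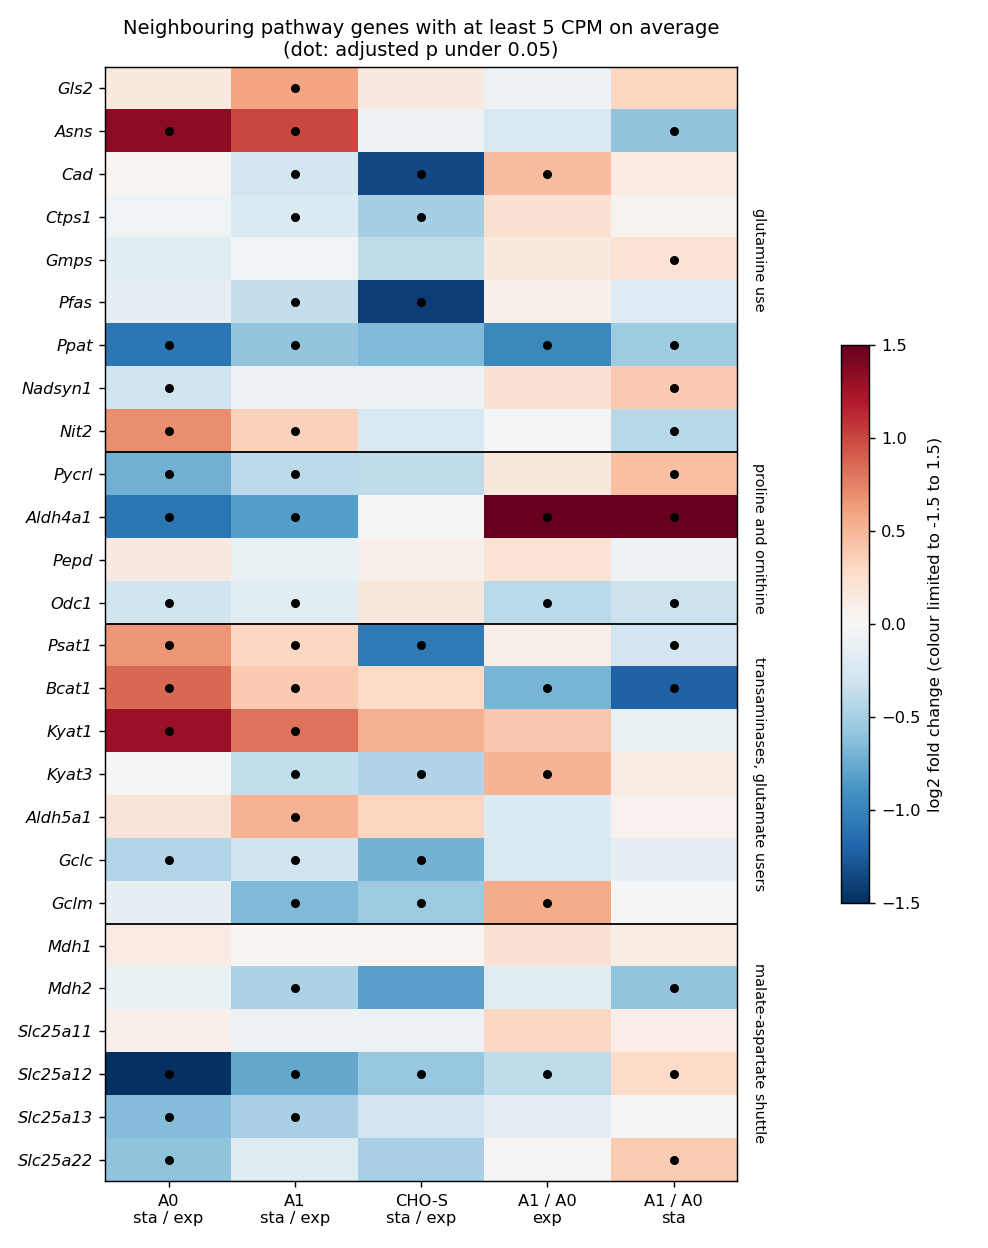
Log2 fold change of stationary against exponential phase in A0, A1 and CHO-S, and of A1 against A0 at each phase, for 26 pathway neighbours that averaged 5 CPM or more, as a colour scale from -1.5 to 1.5 with dots on values past the threshold. Asns is positive for phase in A0 and A1, Slc25a12 is negative for phase in all 3 lines, and Aldh4a1 is negative for phase in A0 and A1 and positive for A1 against A0.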

How the data were processed

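RNA-seq of 24 libraries was analysed from the gene counts deposited by the authors. Per the labels and the methods, reads were aligned to C_griseus_v1.0 with STAR 2.5.4b and counted without normalization with HTSeq 0.7.2. The strand setting is not given in the sources used here, so overlapping and antisense genes are uncertain. The 5 summary lines (reads not aligned, 2.31% to 11.5% per library, reads outside genes, 11.9% to 32.8%, and others) were left out of library sizes and tests.

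Libraries of 1 culture were summed, which gave 20 cultures. A gene was tested if it had 1 count or more in 2 or more cultures of a comparison, which was done in R 4.3.3 with edgeR 4.0.16 (TMM normalization, quasi-likelihood test, two-sided, Benjamini-Hochberg adjustment over all genes tested, threshold 0.05), each comparison fitted on its own groups. Intervals are 95% intervals of the log2 fold change. Alternatives were DESeq2 1.42.0, RLE normalization, other gene filters, 1 fit over all 6 groups, the first A0 libraries alone, a replicate block and leaving out each culture. For the interactions, each culture number of a line was left out at both phases. Scripts were tested on simulated data. Tables and figures were made in Python 3.11.15 (numpy 2.4.6, pandas 2.3.3, matplotlib 3.10.9).

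The members and gene lists were chosen with earlier results of these data known. All members are named. From each list the text names, those that illustrate it among the 3 largest significant changes of genes averaging 5 CPM or more, and others were chosen after their values were seen. Culture numbers paired the A0 cultures across phases (correlation of deviations from 0.19 to 0.44 over 4 pairs, from the data and not the labels), and the replicate block changed no member's call there. Some genes of the lists and of the lines are not reported here by name, but the list counts include them. No genome was used, so no coordinates or sequences are given. The members were matched by gene identifier to the RefSeq table of another assembly.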

Additional observations from a re-analysis of the deposited data

Results flagged for a closer look

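The phase response of 5 members differed between lines in a test of the difference itself. Of all genes, 10.3% passed for A0 against CHO-S, 7.6% for A1 against CHO-S and 8.94% for A1 against A0. Except for Gpt2, each member's call was lost when some single culture number was left out. The phase response was larger in A0 than in CHO-S by 1.01 on the log2 scale for Gpt2 and by 1.04 for Pycr1. It was larger in A1 than in CHO-S by 0.972 and 0.824. Got1, lower at stationary phase in both lines, differed by 0.749 between A0 and CHO-S. Its value for A1 against CHO-S was 0.686 and did not pass the threshold. Glud1, lower at stationary phase in A1 and higher in CHO-S, differed by -0.636. Got2 differed by -0.447 between A1 and A0. The CHO-S cultures are shared by all but the last of these, and their stationary culture 1 had 1038026 reads on genes. By Dixon's test no culture stood apart in the 14 sets of 4 A0 cultures that could be tested (7 members, each at both phases), where chance gives about 0.7.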

How the results depend on the processing

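Of 84 member results, 47 kept their direction and their side of the threshold under every alternative run, among them the phase responses of Pycr1 and Gpt2 in A0 and A1. Of the counts of members past the threshold, these moved by over 1.5 times. With all 6 groups in 1 fit, the A1 phase count was 3 and the A1 minus A0 interaction count 0 (1 at an unadjusted p under 0.05). With a replicate block, the CHO-S phase count was 0 (2 unadjusted) and the A1 minus CHO-S interaction count 1, while DESeq2 gave 5 for the latter. With A0 cultures 3 and 4 alone, the A0 phase count was 2 and the A1 minus A0 count 2, and with cultures 1 and 2 alone the A0 minus CHO-S count was 1. Leaving out 1 culture gave counts from 2 to 4 for A0 phase, 0 to 4 for CHO-S phase and 2 to 4 for A1 against CHO-S at exponential phase. Leaving out 1 culture number at both phases gave 0 to 1 for the A1 minus A0 interaction and 1 to 5 for the A1 minus CHO-S interaction.

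Directions turned only for values past no threshold. With A0 cultures 1 and 2 alone, the log2 values were -0.293 (Aldh18a1, A0 phase), 0.0183 (Got2, A0 against CHO-S at exponential phase), 0.031 (Glud1, A0 against CHO-S at stationary phase), 0.171 and 0.0894 (Gpt2 and Pycr1, A1 minus A0 interaction) and -0.355 (Aldh18a1, A0 minus CHO-S interaction, which was -0.0553 with a replicate block). DESeq2 gave -0.00412 for Got2 in the A1 minus CHO-S interaction. For the ranges that follow, 1 culture was left out in pairwise comparisons and 1 culture number at both phases in interactions. Aldh18a1 ranged from -0.269 to 0.364 for A0 phase and from -0.311 to 0.469 for CHO-S phase. For A1 against CHO-S at stationary phase it ranged from -0.201 to 0.545. It ranged from -0.372 to 0.527 for the A0 minus CHO-S and from -0.788 to 0.035 for the A1 minus CHO-S interaction. Got2 ranged from -0.0571 to 0.0144 for A0 against CHO-S at exponential phase, from -0.0631 to 0.204 for A1 against CHO-S at stationary phase and from -0.096 to 0.155 for the A1 minus CHO-S interaction. In the A1 minus A0 interaction, Got1 ranged from -0.207 to 0.0235 and Gpt2 from -0.202 to 0.064. The causes were not tested. Outside A0 the numbers did not pair the cultures (correlations from -0.19 to 0.19 over the other pairwise comparisons). Aldh18a1 rests on 113 counts in all, and CHO-S at stationary phase on 3 cultures of which 1 is shallow.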
